A study of Oryza sativa with 48 samples.

Results

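Rice leaves that had already stopped elongating were compared after 3 days and after 1 day of complete submergence in M202, a rice cultivar that lacks the submergence tolerance gene SUB1A. The comparison covers the change during continued submergence and takes 6 of the 48 RNA sequencing libraries of the series, 3 from day 3 and 3 from day 1, chosen by their labels for genotype, leaf type and day. Per the labels, the replicates of a group were independent biological samples, pot-grown greenhouse plants were used, and the lower leaves were separated from the still elongating 5th leaf when the plants were taken out of the water. The other groups used below are non-elongating leaves of M202 at days 0 and 6, non-elongating leaves of M202(Sub1), the near-isogenic line that carries SUB1A, at days 3 and 1, and elongating leaves of M202 at days 3 and 1. Both groups of the main comparison had been under water. Leaves kept in air until day 3 or day 1 were not among the groups, so time under water cannot be told apart from leaf age and day of sampling.

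Water slows the exchange of gases, so that oxygen runs short in submerged cells, carbon dioxide limits photosynthesis and ethylene accumulates. Rice cells short of oxygen make ATP by glycolysis and regenerate its cofactor by ethanol fermentation, which uses much sugar for little ATP. Leaves that run out of sugar switch on genes that release it from starch and sucrose, and over time take apart chlorophyll, lipid and protein.

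Total counts lay between 5879544 and 7130662 at day 3 and between 6810835 and 7233223 at day 1. Libraries of the same day correlated across genes at 0.971 to 0.979, and those of different days at 0.949 to 0.957 (Pearson's r of log2 CPM). Levels are given in CPM, read counts scaled to the size of each library, and 3 counts in a library correspond to 0.382 to 0.479 CPM. In whole leaves, fewer cells of a type and less RNA per cell cannot be told apart. Of 5 root markers 1 had no count in the 6 libraries, and the list summed to 30.8 to 34.4 CPM at day 3 and 22.4 to 31.4 CPM at day 1. The 2 shoot meristem markers summed to 0 to 0.254 CPM at day 3 and to 0 CPM at day 1. Genes of the Calvin cycle, the carbon fixation pathway of green tissue, summed to 9940 to 10600 CPM at day 3 and 5110 to 5810 CPM at day 1. Light-harvesting antenna genes summed to 4190 to 5300 CPM at day 3 and 4890 to 5830 CPM at day 1. Photosystem and electron transport genes summed to 6780 to 9410 CPM at day 3 and 8210 to 10300 CPM at day 1. The day 3 and day 1 ranges overlapped for antenna and photosystem genes but not for the Calvin cycle.

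At day 3, relative to day 1, transcripts of several enzymes of ethanol fermentation fell, those of a sugar-shortage kinase, a hexokinase, glutamate dehydrogenases and an isocitrate lyase rose, and so did 6 of 8 cellulose synthases, 5 of 8 plasma membrane aquaporins and 6 of 14 enzymes of the Calvin cycle. Of 21453 genes tested, 3489 (16.3%) changed, with 1962 (9.15%) higher and 1527 (7.12%) lower at day 3 (edgeR's quasi-likelihood test, two-sided, adjusted p under 0.05 by Benjamini and Hochberg over all tested genes). Among these, 859 rose and 512 fell at least 2-fold, and 57 rose and 36 fell at least 8-fold. The 3 libraries of day 3 did not overlap with the 3 of day 1 in 96.9% of the genes called and in 34.3% of all genes tested. The median log2 change of all tested genes was -0.003. Adjusted p-values below come from this test and this adjustment, and the error beside a log2 change is its SE.

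**Figure D1:**
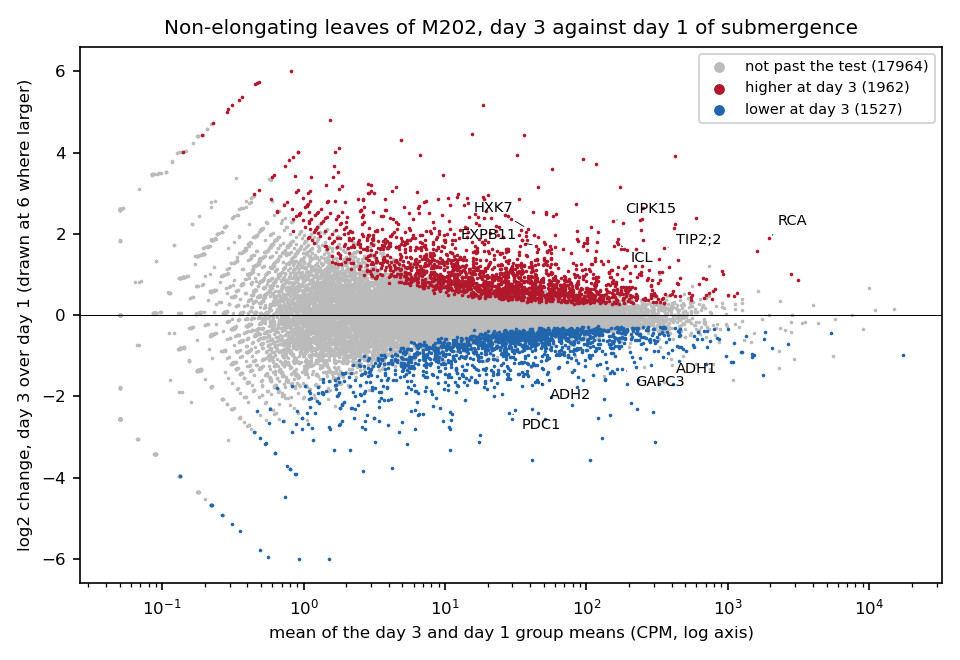
Log2 change of each tested gene, day 3 over day 1 (vertical axis), against the mean of both groups' mean levels in CPM (horizontal log axis), for M202 non-elongating leaves. The 1962 genes that were higher and the 1527 that were lower at day 3 spread over the whole range of levels, with fermentation genes such as PDC1 below 0 and CIPK15, HXK7 and RCA above it.

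Of 10 tested genes of fermentation, 2 rose and 5 fell, where 9.15% and 7.12% of all tested genes did, with a median log2 change of -0.58. The list is wider than ethanol fermentation, as it also holds PPDKB. Its summed level did not fall, at 1550 to 1670 CPM at day 3 and 1530 to 1640 CPM at day 1. PDC1 (OS05G0469600), a pyruvate decarboxylase that commits pyruvate to ethanol, had 10.8, 9.03 and 7.18 CPM in the day 3 libraries and 48.1, 44.4 and 50.7 CPM in the day 1 libraries. ADH2 (OS11G0210500), an alcohol dehydrogenase that makes ethanol from acetaldehyde, had 20.4, 24.7 and 20.3 CPM at day 3 and 68.3, 75.6 and 62.2 CPM at day 1. Every day 3 library lay below every day 1 library for both genes, with log2 changes of -2.4 ± 0.21 (SE, adjusted p = 1.37e-11) for PDC1 and -1.65 ± 0.21 (adjusted p = 3.39e-08) for ADH2. ADH1 (OS11G0210300), the most abundant of the alcohol dehydrogenase transcripts named here, had 248, 227 and 217 CPM at day 3 and 514, 429 and 460 CPM at day 1, and fell by 1.02 ± 0.14 on the log2 scale (adjusted p = 6.37e-07) without overlap. PDC2, a further pyruvate decarboxylase, stayed at 0 to 0.685 CPM at day 3 and 0.262 to 0.67 CPM at day 1, near the level of 3 counts, and its groups overlapped. PPDKB (OS05G0405000), a pyruvate orthophosphate dikinase that turns pyruvate back into phosphoenolpyruvate, had 451, 453 and 482 CPM at day 3 and 235, 217 and 216 CPM at day 1. It was higher in all 3 day 3 libraries and rose by 1.05 ± 0.11 (adjusted p = 5.67e-10).

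The decline belongs to a longer course. PDC1 had no count in the 3 day 0 libraries, where 3 counts are worth 0.377 to 0.559 CPM, and averaged 47.7 ± 3.16 CPM at day 1, 9.01 ± 1.82 CPM at day 3 and 0.287 ± 0.035 CPM at day 6 (SD, n = 3). ADH1 averaged 20.8 ± 3.72, 468 ± 43.1, 231 ± 15.5 and 51.9 ± 14.9 CPM at days 0, 1, 3 and 6. Both transcripts were thus highest at day 1 among the days sampled, and at day 6 ADH1 was still above its day 0 level (log2 change 1.32, adjusted p = 1.71e-09).

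Of 17 tested genes of glycolysis, 2 rose and 6 fell, against 9.15% and 7.12% of all genes, with a median log2 change of -0.29 (0.08 over the members with a checked name alone). The 6 that fell were 5 whenever 1 library was left out. The summed level of the list was lower, at 2490 to 3240 CPM at day 3 and 4100 to 5220 CPM at day 1. GAPC3 (OS02G0601300), a glyceraldehyde-3-phosphate dehydrogenase, had 116, 104 and 86.3 CPM at day 3 and 262, 253 and 259 CPM at day 1. FBA2 (OS01G0905800), a fructose-bisphosphate aldolase, had 578, 507 and 485 CPM at day 3 and 904, 761 and 1040 CPM at day 1. Both were lower in every day 3 library, by 1.34 ± 0.16 for GAPC3 (log2, SE, adjusted p = 2.29e-08) and 0.78 ± 0.15 for FBA2 (adjusted p = 0.000105). HXK7 (OS05G0187100), a hexokinase that phosphorylates glucose at the entry of the pathway, moved the other way, with 55.5, 64.5 and 67.7 CPM at day 3 and 15.1, 13.4 and 14.2 CPM at day 1. Its groups were far apart, and it rose by 2.13 ± 0.17 (adjusted p = 2.1e-13). HXK7 averaged 3.25 ± 1.29 CPM at day 0 and 47 ± 7.6 CPM at day 6, so its highest mean of the 4 days was that of day 3.

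Genes of sugar and starch breakdown were tested for 23 members, of which 6 rose and 2 fell (9.15% and 7.12% of all tested genes), with a median log2 change of 0.18. The 2 that fell are near the share of all genes, and 0 were called without day 1 replicate 3 and 1 without day 3 replicate 2 or 3. CIPK15 (OS11G0113700), a protein kinase that in germinating rice links oxygen and sugar shortage to amylase genes, had 272, 269 and 227 CPM at day 3 and 45.2, 51.2 and 58.8 CPM at day 1. The lowest day 3 library was several times the highest day 1 library, and CIPK15 rose by 2.31 ± 0.16 (log2, SE, adjusted p = 5.33e-15). It averaged 1.26 ± 0.828 CPM at day 0 and 233 ± 38.7 CPM at day 6. Amy3D (OS08G0473900), a starch-degrading alpha-amylase that sugar shortage switches on, had 4.79, 5.98 and 7.02 CPM at day 3 and 0.916, 1.22 and 1.07 CPM at day 1 and rose by 2.45 ± 0.56 (adjusted p = 0.00154), without overlap but from few counts. SUS1 (OS03G0401300), a sucrose synthase that cleaves sucrose, had 37.4, 34 and 37.2 CPM at day 3 and 10.2, 18.1 and 9.92 CPM at day 1. All day 3 libraries of SUS1 were higher, with a log2 change of 1.51 ± 0.24 (adjusted p = 8.64e-06).

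Of 9 tested genes of sugar transport, 2 rose and 0 fell (9.15% and 7.12% of all tested genes). Both that rose export sucrose from cells. SWEET14 (OS11G0508600) had 9.31, 10.2 and 8.94 CPM at day 3 and 2.88, 2.44 and 1.88 CPM at day 1. SWEET11 (OS08G0535200) had 43.3, 40.5 and 28.4 CPM at day 3 and 18.3, 16.6 and 20.6 CPM at day 1. Neither gene's groups overlapped, and the log2 changes were 1.97 ± 0.4 for SWEET14 (SE, adjusted p = 0.000288) and 1.02 ± 0.25 for SWEET11 (adjusted p = 0.00296). The sucrose uptake carriers SUT1 and SUT4 had log2 changes of 0.32 ± 0.13 and -0.29 ± 0.15 and did not pass the test (adjusted p = 0.0948 and 0.185). Of 12 tested genes of starch synthesis, 4 rose and 0 fell (median log2 change 0.37), and the 4 became 2 without day 1 replicate 1 or 2. The 1 of them with a checked name, the starch synthase SSIIb, averaged 31.9 ± 3.91 CPM at day 3 and 23.5 ± 1.33 CPM at day 1 (SD, n = 3, log2 change 0.44 ± 0.14, adjusted p = 0.0243), and its call was lost without day 1 replicate 1 or 3 or day 3 replicate 2 (adjusted p = 0.066, 0.0779 and 0.161).

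**Figure D2:**
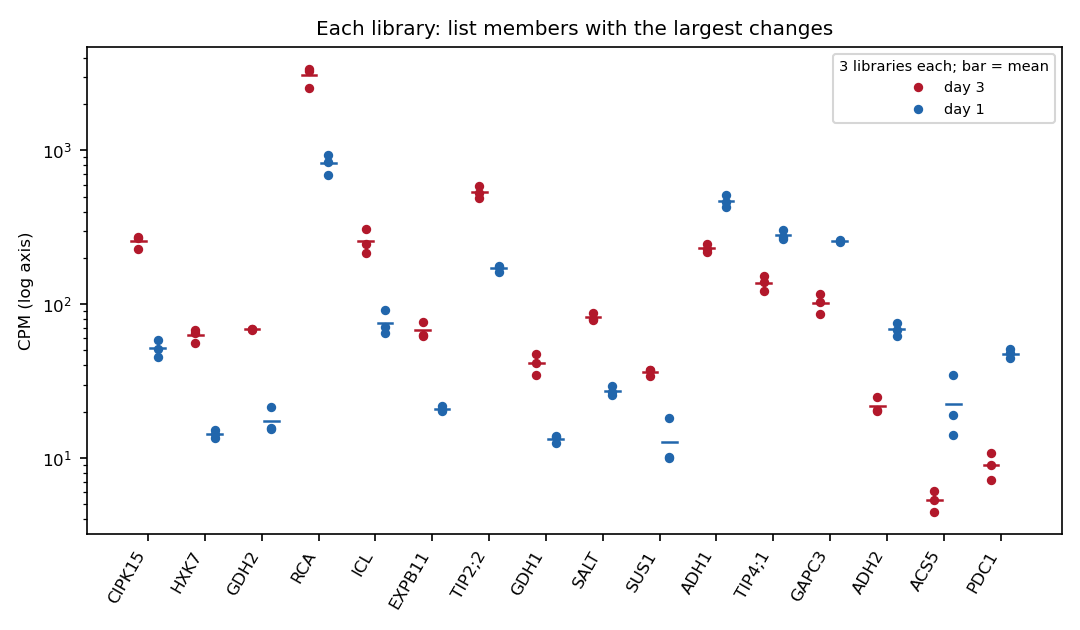
Level in CPM (log axis) of the list members with the largest changes at a mean of at least 10 CPM and a checked name, in each of the 3 libraries of day 3 (left) and of day 1 (right), with the mean as a bar. For each gene shown, all day 3 libraries lie on the same side of all day 1 libraries, and the order runs from CIPK15, the highest ratio, to PDC1, the lowest.

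Of 14 tested genes of nitrogen assimilation, 4 rose and 4 fell, where 9.15% and 7.12% of all tested genes did. GDH2 (OS04G0543900), a glutamate dehydrogenase that releases carbon skeletons from glutamate, had 68.5, 68.8 and 68 CPM at day 3 and 21.5, 15.6 and 15.3 CPM at day 1. GDH1 (OS03G0794500), a second enzyme of this kind, had 34.8, 41.7 and 47.5 CPM at day 3 and 12.4, 13.6 and 13.9 CPM at day 1. Both were higher in every day 3 library, by 1.97 ± 0.17 for GDH2 (log2, SE, adjusted p = 3.56e-12) and 1.63 ± 0.17 for GDH1 (adjusted p = 3.64e-10). GDH2 averaged 30.2 ± 6.01, 17.5 ± 3.48, 68.4 ± 0.433 and 98.5 ± 12.5 CPM at days 0, 1, 3 and 6, so that its highest mean was at day 6.

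Of 17 tested genes of senescence and chlorophyll breakdown, 5 rose and 2 fell (9.15% and 7.12% of all tested genes), with a median log2 change of 0. The 2 that fell became 1 without day 1 replicate 3 or day 3 replicate 3, and 4 in the fit of these days alone. ICL (OS07G0529000), an isocitrate lyase of the glyoxylate cycle that turns acetyl units from lipids into sugar precursors, had 310, 246 and 215 CPM at day 3 and 71.5, 64.6 and 91.4 CPM at day 1. SGR (OS09G0532000), the STAY-GREEN protein that starts chlorophyll a breakdown, had 133, 123 and 123 CPM at day 3 and 47.5, 62.4 and 65.8 CPM at day 1. Both were higher in every day 3 library, by 1.76 ± 0.21 for ICL (log2, SE, adjusted p = 1.26e-07) and 1.11 ± 0.23 for SGR (adjusted p = 0.000408). ICL had no count at day 0 and averaged 68.3 ± 21.9 CPM at day 6, below its day 3 mean. SGR averaged 107 ± 21.7 CPM at day 0, against 126 ± 5.53 CPM at day 3. The chlorophyll b reductases NOL and NYC1 averaged 92.7 ± 15.5 and 260 ± 8.33 CPM at day 3, and 61.2 ± 10.6 and 195 ± 8.07 CPM at day 1. They rose by 0.6 ± 0.13 (adjusted p = 0.00112) and 0.41 ± 0.1 (adjusted p = 0.00297).

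Of 14 tested genes of the Calvin cycle, 6 rose and 0 fell (9.15% and 7.12% of all tested genes), with a median log2 change of 0.42. When 1 library was left out, 4 to 6 rose. RCA (OS11G0707000), the activase that frees Rubisco of inhibitors, had 3380, 3300 and 2560 CPM at day 3 and 936, 689 and 843 CPM at day 1. FBAcp (OS11G0171300), a chloroplast aldolase, had 3690, 3820 and 3750 CPM at day 3 and 1980, 1770 and 1800 CPM at day 1. Their groups did not overlap, and RCA rose by 1.91 ± 0.2 (log2, SE, adjusted p = 3.26e-10) and FBAcp by 1.02 ± 0.16 (adjusted p = 5.42e-06). At day 0 RCA averaged 9410 ± 1730 CPM and FBAcp 9470 ± 914 CPM, so the day 3 means were above those of day 1 and below those of day 0. Of 7 tested genes of photorespiration, which salvages the by-product of Rubisco's reaction with oxygen, 3 rose and 0 fell, and without day 3 replicate 1 the 3 became 1.

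Of 17 tested photosystem and electron transport genes 0 rose and 1 fell, and of 12 light-harvesting antenna genes 1 rose and 0 fell. Among all tested genes 9.15% rose and 7.12% fell, so these single calls are near those shares. The median log2 changes of the photosystem and antenna lists were -0.15 and -0.24. The gene that fell was PSBQ (OS07G0544800), a subunit of the oxygen-evolving complex of photosystem II, with 127, 117 and 111 CPM at day 3 and 197, 213 and 185 CPM at day 1. Its groups did not overlap, and the log2 change was -0.75 ± 0.16 (SE, adjusted p = 0.000685). At an unadjusted p under 0.05, 5 of the 17 photosystem and electron transport genes were lower and 1 higher, and DESeq2 called 1 lower and 0 higher. The antenna genes CAB1R and LHCB2 had log2 changes of -0.34 ± 0.19 and -0.3 ± 0.18 and did not pass (adjusted p = 0.225 and 0.306). Of 13 genes of chlorophyll synthesis 1 rose, CHLG, the chlorophyll synthase, with a log2 change of 0.42 ± 0.14 (adjusted p = 0.0383), and its call was lost without day 1 replicate 2 or day 3 replicate 1 or 2 (adjusted p = 0.215, 0.155 and 0.0868). Without day 1 replicate 3 the list had 3 calls. CHLH, the large subunit of magnesium chelatase, had a log2 change of 0.31 ± 0.13 that did not pass (adjusted p = 0.0929), but passed by DESeq2 (adjusted p = 0.0295).

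Several genes that build the cell wall rose. Of 8 tested cellulose synthase genes 6 rose and 0 fell (median log2 change 0.79), where 9.15% of all genes rose. CESA1 (OS05G0176100), a subunit of the primary wall complex, had 310, 333 and 350 CPM at day 3 and 167, 162 and 148 CPM at day 1. CESA5 (OS03G0837100) had 233, 242 and 225 CPM at day 3 and 95.2, 105 and 106 CPM at day 1. The day 3 libraries were all higher, and the log2 changes were 1.06 ± 0.12 for CESA1 (SE, adjusted p = 3.79e-09) and 1.2 ± 0.15 for CESA5 (adjusted p = 2.83e-08). CESA8, CESA6 and CESA4 rose by 0.92 ± 0.14, 0.79 ± 0.15 and 0.76 ± 0.15 (adjusted p = 1.51e-06, 9.67e-05 and 0.000164), and CESA4 is known from rice as a subunit of the secondary wall complex. CESA1 averaged 788 ± 54.4, 159 ± 9.9, 331 ± 20 and 185 ± 33.6 CPM at days 0, 1, 3 and 6, so that its day 3 mean stood above those of days 1 and 6 and below that of day 0.

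Expansins loosen the cell wall and let cells extend. Of 8 tested, 4 rose and 0 fell (median log2 change 0.8) in these leaves labelled as non-elongating. Of all tested genes, 9.15% rose and 7.12% fell. EXPB11 (OS02G0658800) had 77.1, 63.1 and 62.4 CPM at day 3 and 20.4, 20.1 and 21.6 CPM at day 1. EXPB3 (OS10G0555900) had 54.9, 45 and 39.4 CPM at day 3 and 19.8, 15.3 and 18.8 CPM at day 1. EXPB4 and EXPA4 averaged 39.6 ± 3.15 and 25 ± 6.68 CPM at day 3, and 15.7 ± 1.81 and 12.9 ± 1.88 CPM at day 1. None of these 4 overlapped between the days, and they rose by 1.71 ± 0.26, 1.37 ± 0.2, 1.33 ± 0.26 and 0.95 ± 0.26 (EXPB11, EXPB3, EXPB4 and EXPA4; adjusted p = 3.4e-06, 1.56e-06, 0.000151 and 0.00724). Without day 3 replicate 3 the call of EXPA4 was lost (adjusted p = 0.0749). Genes of cell division had no call. Of 12, 0 passed and 0 had an unadjusted p under 0.05 (0 by DESeq2 also), the median log2 change was 0.09, and the whole list summed to 30.2 to 45.7 CPM at day 3 and 30.5 to 38.6 CPM at day 1.

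Aquaporins are channels that pass water through membranes. Of 8 tested plasma membrane aquaporins 5 rose and 0 fell (median log2 change 0.63), where 9.15% and 7.12% of all tested genes did. Without day 3 replicate 2 the 5 became 3, as PIP1;3 and PIP2;6 lost their calls (adjusted p = 0.0805 and 0.0615), and that of PIP1;3 was lost also without day 1 replicate 2 (adjusted p = 0.0561). PIP1;1 (OS02G0666200) had 270, 251 and 246 CPM at day 3 and 107, 115 and 123 CPM at day 1. PIP2;1 (OS07G0448800) had 141, 123 and 111 CPM at day 3 and 77.9, 72.2 and 85.8 CPM at day 1. Both were higher in all day 3 libraries, by 1.15 ± 0.14 for PIP1;1 (log2, SE, adjusted p = 2.72e-08) and 0.67 ± 0.13 for PIP2;1 (adjusted p = 0.000257). PIP2;2 averaged 7.57 ± 0.386 CPM at day 3 and 2.21 ± 1.29 CPM at day 1 and rose by 1.76 ± 0.38 (adjusted p = 0.000571). Of 4 vacuolar aquaporins 2 rose and 1 fell. TIP2;2 (OS06G0336200) had 590, 526 and 492 CPM at day 3 and 161, 175 and 177 CPM at day 1. TIP4;1 (OS05G0231700) had 139, 122 and 153 CPM at day 3 and 305, 275 and 266 CPM at day 1. These members of 1 family thus moved apart without overlap, with log2 changes of 1.65 ± 0.14 for TIP2;2 (adjusted p = 7.7e-13) and -1.03 ± 0.14 for TIP4;1 (adjusted p = 1.49e-07). TIP1;1 rose by 1.26 ± 0.19 (adjusted p = 2.32e-06).

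**Figure D3:**
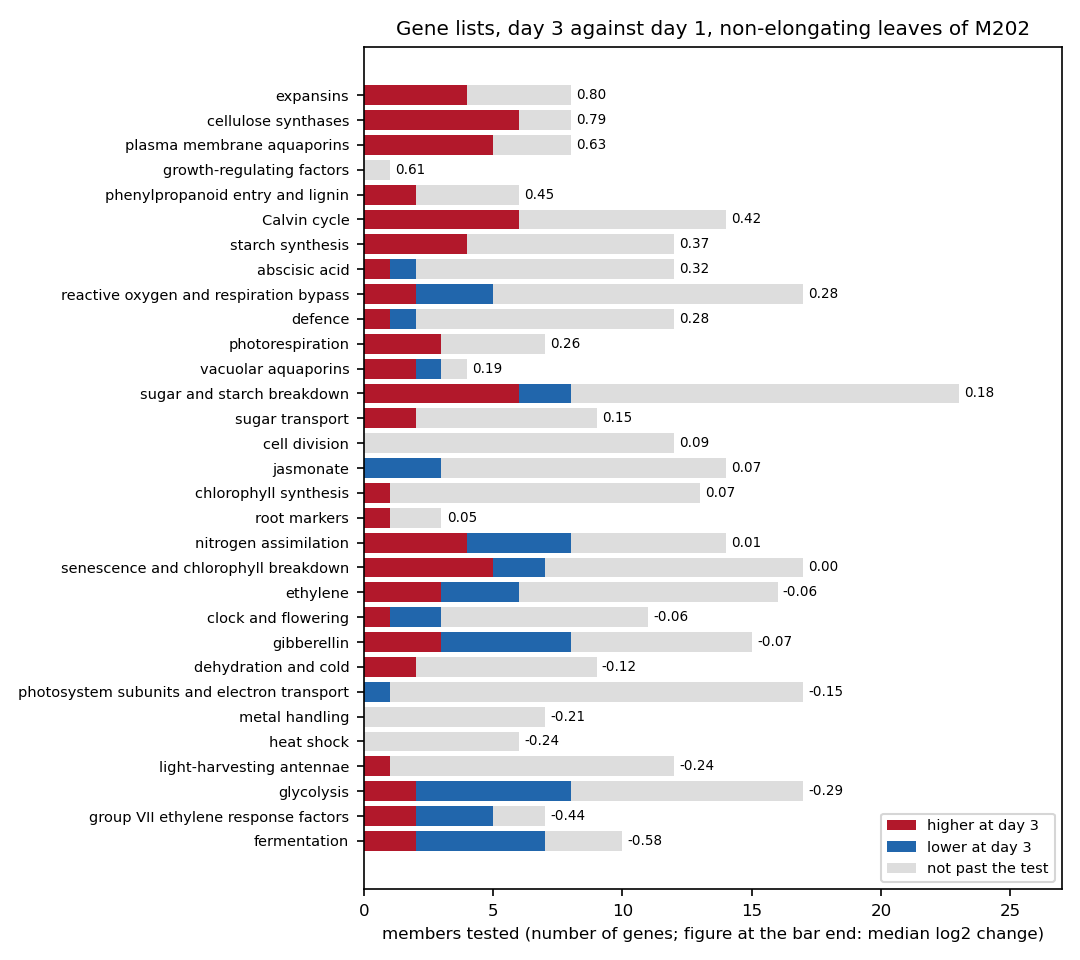
Number of tested members of each gene list that were higher at day 3, lower at day 3 or not past the test (bar sections, genes), with the median log2 change of the list at the end of the bar. Lists run from expansins, at a median of 0.80, down to fermentation, at -0.58, and the bars show that no list changed in all of its members.

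Hormone lists were mixed, where 9.15% of all tested genes rose and 7.12% fell. Of 16 tested genes of ethylene synthesis and signalling 3 rose and 3 fell, and of 7 group VII ethylene response factors, the family of oxygen-sensing regulators to which SUB1A belongs, 2 rose and 3 fell. The response factors had a median log2 change of -0.44, and their summed level was lower, at 3550 to 3680 CPM at day 3 and 5800 to 6190 CPM at day 1. The 3 ethylene genes that rose became 1 without day 3 replicate 1. The 2 response factors that rose became 1 without day 1 replicate 2 or day 3 replicate 1 or 2. ACS5 (OS01G0192900), an ACC synthase that makes the ethylene precursor, had 5.34, 6.11 and 4.47 CPM at day 3 and 19, 14.1 and 34.6 CPM at day 1. It was lower in every day 3 library and fell by 2.08 ± 0.32 (log2, SE, adjusted p = 5.59e-06). Of 15 tested genes of gibberellin, the hormone that drives elongation, 3 rose and 5 fell. The 3 that rose became 1 without day 1 replicate 1 or 3 or day 3 replicate 1 or 3, and the 5 that fell became 3 without day 3 replicate 2. GID1 (OS05G0407500), the gibberellin receptor, had 25.6, 28.5 and 27.4 CPM at day 3 and 50.4, 41.8 and 45.7 CPM at day 1. All day 3 libraries of GID1 were lower, with a log2 change of -0.76 ± 0.14 (adjusted p = 0.000121). SD1 (OS01G0883800), a gibberellin 20-oxidase, averaged 32.1 ± 4.85 CPM at day 3 and 38.4 ± 0.463 CPM at day 1, and its log2 change of -0.26 ± 0.2 did not pass (adjusted p = 0.442).

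Of 12 tested genes of abscisic acid, the hormone that opposes elongation, 1 rose and 1 fell, near the shares of all tested genes (9.15% and 7.12%). The 1 that fell was lost by DESeq2, with RLE scaling and without any 1 library but day 1 replicate 3. The transcription factors bZIP23 and TRAB1, which act in its signalling, had log2 changes of 0.41 ± 0.18 and 0.52 ± 0.21 and did not pass (adjusted p = 0.11 and 0.0866). Of 14 tested jasmonate genes 0 rose and 3 fell, with a median log2 change of 0.07, and without day 3 replicate 2 the 3 became 1. COI1a, a subunit of the jasmonate receptor, averaged 159 ± 13.1 CPM at day 3 and 206 ± 13.6 CPM at day 1 (log2 change -0.37 ± 0.12, adjusted p = 0.0294), and its call was lost with no filter (adjusted p = 0.0524) and without day 1 replicate 1 or 2 or day 3 replicate 1 or 2 (adjusted p = 0.125, 0.1, 0.136 and 0.12). JAR1 (OS05G0586200), the enzyme that joins jasmonate to isoleucine to give the active hormone, had 98.3, 88.3 and 76.9 CPM at day 3 and 109, 120 and 146 CPM at day 1. Its groups did not overlap, and it fell by 0.51 ± 0.12 (log2, SE, adjusted p = 0.00201). TIFY10a, a jasmonate signalling repressor, averaged 13.4 ± 3.37 CPM at day 3 and 22.3 ± 3.66 CPM at day 1 (log2 change -0.74 ± 0.22, adjusted p = 0.0137). Its call was lost without day 1 replicate 3 or day 3 replicate 2 or 3 (adjusted p = 0.088, 0.0861 and 0.0877).

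Among genes that handle reactive oxygen or bypass respiration, 2 of 17 rose and 3 fell (9.15% and 7.12% of all tested genes). The 2 that rose became 1 without day 1 replicate 1 or 2 or day 3 replicate 2. The 3 that fell were at most 2 whenever 1 library was left out, and 1 without day 3 replicate 3. CATA (OS02G0115700), a catalase that removes hydrogen peroxide, had 186, 154 and 160 CPM at day 3 and 63.8, 49.3 and 76 CPM at day 1. Every day 3 library was higher, with a log2 change of 1.41 ± 0.18 (SE, adjusted p = 5.01e-08). AOX1a, a mitochondrial alternative oxidase, had 0.548, 1.27 and 0.319 CPM at day 3 and 4.45, 2.71 and 3.75 CPM at day 1, without overlap and close to the level of 3 counts at day 3 (log2 change -2.28 ± 0.64, adjusted p = 0.00898). Without day 3 replicate 1 or 3 its call was lost (adjusted p = 0.0503 and 0.0591). SALT (OS01G0348900), a mannose-binding lectin first known from salt stress, had 88.2, 78.4 and 80.1 CPM at day 3 and 26.7, 25.8 and 29.2 CPM at day 1. All day 3 libraries of SALT were higher, and it rose by 1.59 ± 0.15 (adjusted p = 1.58e-11). RAB25, a dehydrin, averaged 8.46 ± 0.811 CPM at day 3 and 2.31 ± 0.828 CPM at day 1 and rose by 1.86 ± 0.36 (adjusted p = 0.000125), which made 2 of 9 members of the dehydration and cold list that rose, with 0 that fell.

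Other lists showed few or no calls, where 9.15% of all tested genes rose and 7.12% fell. Of 6 tested heat shock genes and 7 of metal handling 0 passed in either direction (at an unadjusted p under 0.05, 0 were higher and 1 lower among heat shock genes and 1 higher and 1 lower in metal handling, and DESeq2 called 0 in both), with median log2 changes of -0.24 and -0.21. The summed level of metal handling was still lower, at 8380 to 9830 CPM at day 3 and 11100 to 11400 CPM at day 1. Heat shock genes summed to 337 to 347 CPM at day 3 and 353 to 400 CPM at day 1. The heat shock factor HSFA2c, at a log2 change of -0.51 ± 0.2 (adjusted p = 0.0704), passed without day 1 replicate 3 (adjusted p = 0.0264), and the fit of these days alone called 1 metal handling gene higher and 1 lower. Of 11 clock and flowering genes 1 rose, near the share of all genes, and 2 fell. The clock's pseudo-response regulator PRR37 averaged 97.8 ± 26.2 CPM at day 3 and 55.4 ± 3.42 CPM at day 1 and rose by 0.82 ± 0.16 (adjusted p = 0.000127). PRR1, of the same family, averaged 10.1 ± 1.14 CPM at day 3 and 16.8 ± 0.791 CPM at day 1 and fell by 0.72 ± 0.17 (adjusted p = 0.00222). Of 12 defence genes 1 rose and 1 fell, near the shares of all genes. The gene that fell was WRKY24, a transcription factor, with a log2 change of -0.92 ± 0.3 (adjusted p = 0.0272), and its call was lost without day 1 replicate 2 or 3 or day 3 replicate 1 or 3 (adjusted p = 0.0665 to 0.134), while 2 rather than 1 were higher by DESeq2 and without day 3 replicate 3. Of 6 of the phenylpropanoid pathway 2 rose and 0 fell. Among the 3 tested root markers, the sodium transporter HKT2;1 averaged 26 ± 0.497 CPM at day 3 and 17.7 ± 2.18 CPM at day 1 (log2 change 0.55 ± 0.17, adjusted p = 0.016, and 0.0928 without day 1 replicate 2), while the manganese transporter NRAMP5 and the silicon channel LSI1 stayed at 2.54 to 5.11 CPM at day 3 and 2.09 to 5.9 CPM at day 1 with overlap. The 1 tested growth-regulating factor, of a family that supports cell division, had a log2 change of 0.61 and did not pass. Among the lists with 0 calls in 1 direction, 1 jasmonate and 1 photosystem gene were higher and 1 chlorophyll synthesis gene and 1 plasma membrane aquaporin lower at an unadjusted p under 0.05, and of these DESeq2 called the aquaporin only. Over all lists together, 71 of 341 tested members rose and 42 fell (9.15% and 7.12% of all tested genes), with a median log2 change of 0.08.

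The largest changes outside the lists, at a mean of at least 10 CPM and without overlap, belonged to genes that the sources used here do not name. OS08G0503000 had 44.1, 33.3 and 31 CPM at day 3 and 0.786, 0.271 and 1.88 CPM at day 1, and OS12G0163700 had 39.3, 24.4 and 25.1 CPM and 1.96, 0 and 2.01 CPM on the same days. These genes were low at day 1, though below the level of 3 counts in replicate 2 only, and rose by 5.18 ± 0.47 and 4.46 ± 0.48 (log2, SE, adjusted p = 1.55e-11 and 3.07e-09). OS03G0765500 had 8.22, 6.49 and 4.15 CPM at day 3 and 78.3, 98 and 50.9 CPM at day 1, and OS02G0811501 had 10.7, 13.4 and 26.8 CPM and 117, 413 and 59.7 CPM. They fell by 3.57 ± 0.24 and 3.55 ± 0.7 (adjusted p = 1.59e-14 and 0.000215).

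To place these changes in the course of submergence, day 6 was set against day 0 in the same leaves, a comparison that shares no library with day 3 against day 1. Of the 1962 genes that rose, 38.1% were higher and 32.9% lower at day 6 than at day 0, and of the 1527 that fell 36.7% were higher and 34.1% lower, where 26.7% of all tested genes were higher and 26.7% lower. The genes that rose therefore included those above and those below the day 0 level at day 6. HXK7, CIPK15 and SALT stood above day 0 at day 6 (log2 changes 3.8, 7.41 and 3.07), and RCA, CESA1 and PIP1;1 stood below it (-1.77, -2.09 and -1.48; adjusted p at most 1.02e-10 for these 6). The plasma membrane aquaporins show the course of a whole list. Lower than at day 0 were 7 of 8 at day 1, 5 of 8 at day 3 and 7 of 8 at day 6, in comparisons that share the day 0 libraries (of all tested genes, 52.5%, 51.2% and 53.4% differed from day 0 on these days, and 26.4%, 25.2% and 26.7% were lower). The Calvin cycle list had 14, 14 and 13 of 14 members lower than at day 0 on days 1, 3 and 6, so that the members that rose at day 3 were still below day 0.

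**Figure D4:**
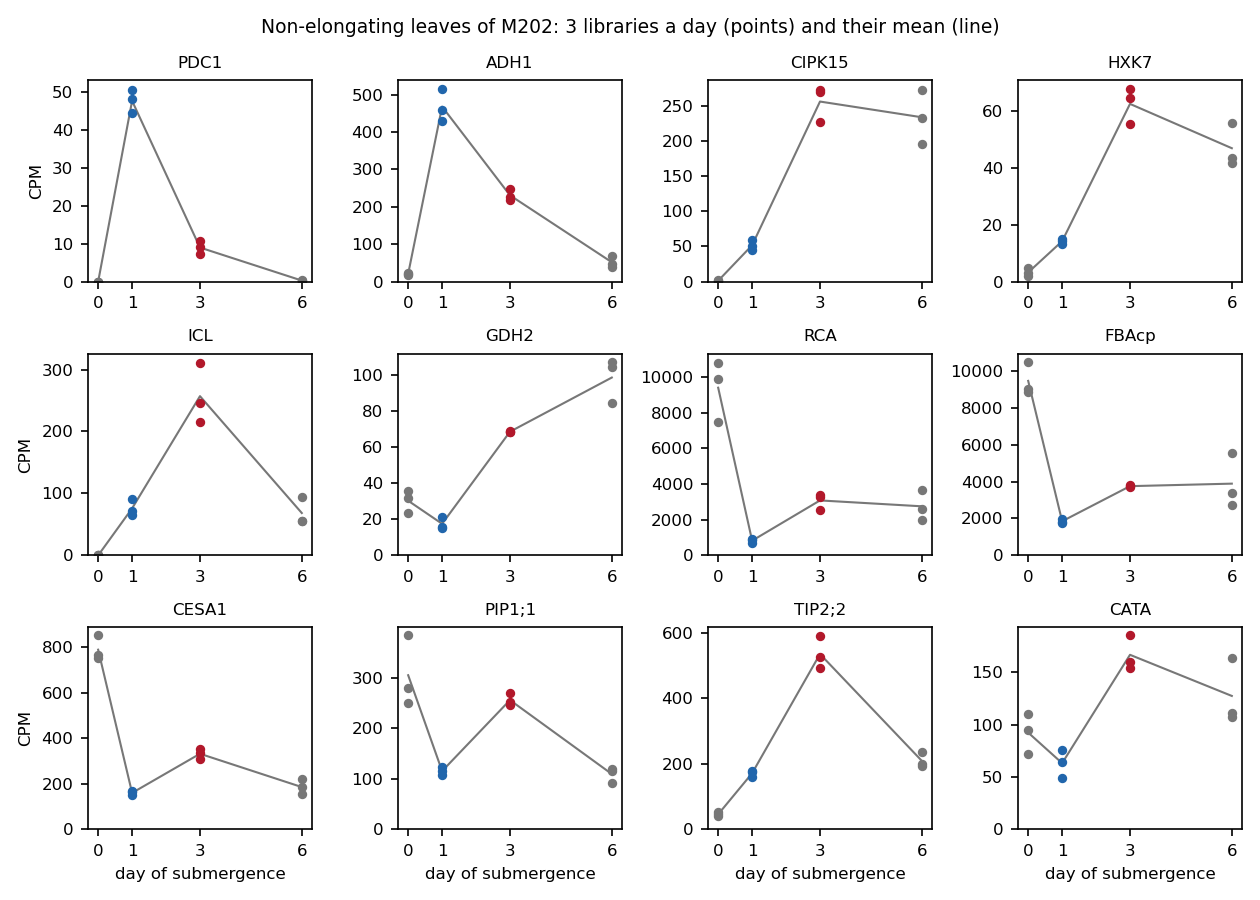
Level in CPM (vertical axes from 0) of 12 genes at days 0, 1, 3 and 6 in non-elongating leaves of M202, with 3 libraries a day as points (day 1 blue, day 3 red) and their mean as a line. PDC1 and ADH1 peak at day 1, CIPK15, HXK7, ICL, TIP2;2 and CATA have their highest mean at day 3, GDH2 at day 6, and RCA, FBAcp, CESA1 and PIP1;1 at day 0.

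The change was next set against that of M202(Sub1) over the same days in the same leaf type, measured in separate libraries. Of the genes that rose in M202, 56.1% also rose in M202(Sub1), which was 50.6% of those that rose there, against 10.1% of all tested genes. Of the genes that fell in M202, 42.1% also fell in M202(Sub1), which was 44.4% of those that fell there, against 6.75% of all tested genes. The difference between the genotypes' changes passed the test for 321 genes (1.5%), of which 129 (0.601%) had the higher change in M202 and 192 (0.895%) the lower. This count depends on single libraries: it was 182 to 191 without M202 day 1 replicate 1 or 2 or M202 day 3 replicate 1 or 2, 174 to 201 without any 1 of the 3 day 1 libraries of M202(Sub1), and 148 without day 3 replicate 3 of M202(Sub1).

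CATA rose by 1.41 ± 0.18 (log2, SE) in M202 and had a change of -0.49 ± 0.24 in M202(Sub1) that did not pass (adjusted p = 0.17), and the changes differed by 1.89 ± 0.3 (adjusted p = 0.000122). Its means were 167 ± 16.8 CPM at day 3 and 63 ± 13.4 CPM at day 1 in M202, and 10.1 ± 1.97 CPM at day 3 and 14.1 ± 4.3 CPM at day 1 in M202(Sub1) (SD, n = 3 each). HXK7, GDH1 and GDH2 had the larger change in M202, with 2.13 ± 0.17, 1.63 ± 0.17 and 1.97 ± 0.17, against 0.8 ± 0.18, 0.29 ± 0.18 and 0.76 ± 0.2 in M202(Sub1) (adjusted p of the differences 0.00184, 0.00116 and 0.00989). The difference for GDH2 did not pass without day 1 replicate 1 of M202(Sub1) (adjusted p = 0.0511). PDC1 and ADH2 changed by -2.4 ± 0.21 and -1.65 ± 0.21 in M202 and by -1.3 ± 0.2 and -0.63 ± 0.19 in M202(Sub1), and the difference passed for both (adjusted p = 0.0368 and 0.0442). Both differences were near the threshold: that of ADH2 did not pass without any 1 of 11 of the 12 libraries (all but M202 day 1 replicate 3), nor that of PDC1 without any 1 of 9 (all but M202(Sub1) day 1 replicate 1 and day 3 replicate 3 and M202 day 3 replicate 1), with adjusted p = 0.0574 to 0.126. ADH1 fell in both genotypes, by 1.02 ± 0.14 on the log2 scale in M202 and by as much in M202(Sub1), where the change was -1.02 ± 0.14.

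For 3 expansins the log2 change was smaller in M202. EXPB11, EXPB3 and EXPA4 rose by 1.71 ± 0.26, 1.37 ± 0.2 and 0.95 ± 0.26 in M202, against 4.33 ± 0.41, 3.44 ± 0.27 and 2.49 ± 0.32 in M202(Sub1) (adjusted p of the differences 0.00311, 0.000368 and 0.0448). EXPB11 averaged 67.5 ± 8.3 CPM at day 3 and 20.7 ± 0.784 CPM at day 1 in M202, and 26.6 ± 3.35 CPM at day 3 and 1.29 ± 0.419 CPM at day 1 in M202(Sub1). Its day 1 level in M202(Sub1) was low, as 3 counts in those libraries are worth 0.552 to 0.611 CPM. In CPM, its rise was the larger in M202. SUS1 rose by 1.51 ± 0.24 in M202 and 3.04 ± 0.31 in M202(Sub1), CESA5 by 1.2 ± 0.15 and 1.99 ± 0.16, and PIP2;6 by 0.6 ± 0.19 and 1.86 ± 0.22 (adjusted p of the differences 0.0372, 0.0412 and 0.0163). Of these, EXPB11 and EXPB3 passed in every alternative tried. The difference for EXPA4 did not pass without any 1 of 9 of the 12 libraries (all but M202 day 1 replicate 3 and day 3 replicate 3 and M202(Sub1) day 1 replicate 1), that for SUS1 without any 1 of 9 (all but M202 day 1 replicates 1 and 3 and M202(Sub1) day 3 replicate 2) and that for CESA5 without any 1 of 11 (all but M202(Sub1) day 3 replicate 2), with adjusted p of up to 0.15, 0.194 and 0.128. That for PIP2;6 did not pass without M202 day 1 replicate 2 or day 3 replicate 1 or M202(Sub1) day 1 replicate 3 or day 3 replicate 1 (adjusted p = 0.0593 to 0.0627). The rise of PIP2;6 in M202 itself lost its call without day 1 replicate 1 or 3 or day 3 replicate 2 or 3 (adjusted p = 0.0549, 0.136, 0.0615 and 0.146). For CIPK15, which rose by 2.31 ± 0.16 in M202 and 1.56 ± 0.17 in M202(Sub1), the difference of 0.75 ± 0.23 did not pass (adjusted p = 0.0998).

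Set against the elongating 5th leaf of M202, the change differed for 1401 genes (6.53%), with 709 higher and 692 lower in non-elongating leaves. Of the genes that rose in non-elongating leaves 42.4% also rose in elongating leaves, which was 34.3% of those that rose there, against 11.3% of all tested genes. Of the genes that fell, 47% also fell in elongating leaves, which was 30.3% of those that fell there, against 11% of all tested genes.

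RCA and FBAcp rose by 1.91 ± 0.2 and 1.02 ± 0.16 (log2, SE) in non-elongating leaves, with log2 changes of 0.53 ± 0.19 and -0.07 ± 0.16 in elongating leaves (adjusted p of the differences 0.000789 and 0.00152). CATA had a log2 change of 1.41 ± 0.18 in non-elongating leaves and -0.02 ± 0.19 in elongating leaves (adjusted p of the difference 0.000286). PIP1;1 and PIP2;1 rose by 1.15 ± 0.14 and 0.67 ± 0.13 in non-elongating leaves, against changes of 0.17 ± 0.14 and -0.5 ± 0.14 in elongating leaves (adjusted p of the differences 0.00117 and 7.48e-05). Over the list, 4 of 8 plasma membrane aquaporins had the higher change in non-elongating leaves and 0 the lower (3.3% and 3.23% of all tested genes). CESA4 rose by 0.76 ± 0.15 in non-elongating leaves and changed by -0.72 ± 0.15 in elongating leaves, and CESA1 had log2 changes of 1.06 ± 0.12 and 0.28 ± 0.12 (adjusted p of the differences 5.93e-06 and 0.00244).

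ICL, HXK7 and NYC1 rose less on the log2 scale in non-elongating leaves, though in CPM the rise of ICL was larger there. ICL averaged 257 ± 48.5 CPM at day 3 and 75.8 ± 13.9 CPM at day 1 in non-elongating leaves, and 7.23 ± 0.816 CPM at day 3 and 0.096 ± 0.166 CPM at day 1 in elongating leaves (SD, n = 3 each). Its log2 changes were 1.76 ± 0.21 (SE) in non-elongating and 6.04 ± 0.64 in elongating leaves, a difference of -4.28 ± 0.8 (adjusted p = 0.000834), and as each elongating library of day 1 held under 3 counts, the size of the change there depends on the fit. HXK7 rose by 2.13 ± 0.17 in non-elongating and 3.3 ± 0.2 in elongating leaves, and NYC1 by 0.41 ± 0.1 and 1.13 ± 0.11 (adjusted p of the differences 0.00327 and 0.00131). SD1 had log2 changes of -0.26 ± 0.2 in non-elongating leaves and by -1.53 ± 0.22 in elongating leaves (adjusted p of the difference 0.00538), with means of 32.1 ± 4.85 CPM at day 3 and 38.4 ± 0.463 CPM at day 1 in non-elongating leaves and 17.1 ± 1.71 CPM at day 3 and 49.4 ± 3.74 CPM at day 1 in elongating leaves. In fermentation, the differences between leaf types for ADH1, ADH2 and PDC1 were 0.55 ± 0.2, -0.96 ± 0.4 and -0.97 ± 0.37 and did not pass (adjusted p = 0.102, 0.157 and 0.109).

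**Figure D5:**
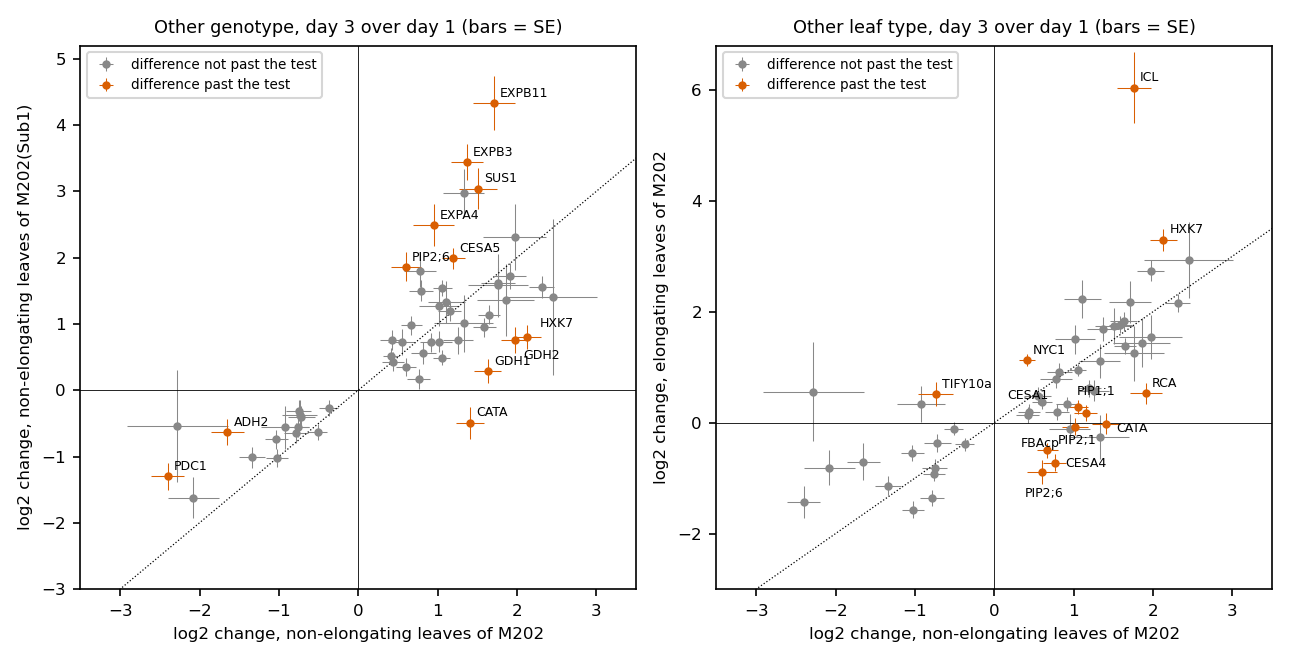
Log2 change of named genes past the test, day 3 over day 1, in non-elongating leaves of M202 (horizontal axes) against the same change in non-elongating leaves of M202(Sub1) (left) and in elongating leaves of M202 (right), with the SE as bars and equality as a dotted line. Orange genes, such as CATA and EXPB11 on the left and ICL and CESA4 on the right, are those whose difference passed the test.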

How the data were processed

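RNA of rice leaves was sequenced in 48 libraries of 16 groups, 3 replicates each, and the authors deposited 1 table of whole-number read counts for 37830 genes, not normalized. The submitters' processing notes name STAR, featureCounts, DESeq2 and the build IRGSP-1.0. Versions, the strand setting and whether the reads of a pair were counted singly are not given in the sources used here. Between 66.5% and 69.8% of the counts above 0 were even numbers in the 6 libraries of days 3 and 1, so intervals that treat counts as single molecules were not used. Reads of near-identical paralogs and of overlapping or antisense genes cannot be told apart.

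From the deposited counts, edgeR 4.0.16 (R 4.3.3, limma 3.58.1) fitted all 16 groups together with TMM scaling, after a filter (filterByExpr, minimum count 10, minimum total 15) that kept 21453 genes with at least 99.86% of the counts of these 6 libraries. Contrasts were tested by the quasi-likelihood F test, two-sided, with Benjamini-Hochberg adjustment over all 21453 genes and a threshold of 0.05. The genotype and leaf type differences were interaction contrasts of the same fit. CPM were computed here from the deposited counts and the scaled library sizes. The SE of a log2 change was derived from its F value.

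The genes came in 32 lists of 396 pairs of symbol and ID. The members and lists were chosen with earlier results of these data known, so they are no independent evidence. A symbol was printed only for the 242 pairs whose chromosome and approximate position, within 300 kb, matched the RefSeq gene table of ASM3414082v1, no coordinate of which is used. List counts include the pairs not checked. Named were up to 4 members per list with the smallest adjusted p, the 12 per direction with the largest change at a mean of at least 10 CPM, the 6 per direction with the smallest adjusted p in each difference, and a fixed set that includes ADH1, PDC1, PDC2, CIPK15, Amy3D, SGR, RCA, CESA1 and SD1; of genes without a name, 2 that rose and 2 that fell. The text describes most of these, and further list members only as values.

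No pairing of samples by replicate number was seen, and the labels give no batch. As alternatives, each library was left out in turn, the compared groups were fitted alone, replicate number was added as a block, the filter was dropped, and DESeq2 1.42.0 or another scaling (upper-quartile, RLE) was used. Sequences and promoters were not analysed here.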

Additional observations from a re-analysis of the deposited data

Results flagged for a closer look

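The results here are those in which the change at day 3 relative to day 1 differed between M202 and M202(Sub1), or between leaf types, by a test of the difference itself (edgeR's quasi-likelihood test, adjusted over all 21453 genes). Groups of 3 libraries are too small for a check of single outlying samples. The change differed between genotypes for 321 genes and between leaf types for 1401 genes.

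Values in this paragraph are the log2 change in M202 minus that in M202(Sub1), both in non-elongating leaves. The difference was positive for CATA at 1.89, GDH1 at 1.34, HXK7 at 1.33 and GDH2 at 1.21 (adjusted p = 0.000122, 0.00116, 0.00184 and 0.00989). Among expansins it was -2.63 for EXPB11, -2.07 for EXPB3 and -1.54 for EXPA4 (adjusted p = 0.00311, 0.000368 and 0.0448). It was -1.53 for SUS1, -1.26 for PIP2;6 and -0.79 for CESA5 (adjusted p = 0.0372, 0.0163 and 0.0412). In fermentation it was -1.09 for PDC1 and -1.02 for ADH2 (adjusted p = 0.0368 and 0.0442). Of the genes without a name, OS03G0765500 had -2.46 and OS02G0811501 had -4.41 (adjusted p = 4.05e-06 and 0.0105), and the call of OS02G0811501 was lost without M202 day 1 replicate 2 (adjusted p = 0.0888).

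Values in this paragraph are the log2 change in non-elongating minus that in elongating leaves of M202. In photosynthesis and chlorophyll genes the difference was 1.38 for RCA, 1.09 for FBAcp and 0.64 for CHLD, a magnesium chelatase subunit (adjusted p = 0.000789, 0.00152 and 0.0108), and that of CHLD was lost without non-elongating day 1 replicate 2 (adjusted p = 0.0573). It was 1.49 for PIP2;6, 1.17 for PIP2;1 and 0.98 for PIP1;1 (adjusted p = 0.000834, 7.48e-05 and 0.00117), and 1.47 for CESA4 and 0.78 for CESA1 (adjusted p = 5.93e-06 and 0.00244). CATA had 1.43 and SD1 had 1.27 (adjusted p = 0.000286 and 0.00538).

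In the same comparison HSFA2c, a heat shock factor, had 0.98 (adjusted p = 0.0253), which did not pass without any 1 of 5 libraries (non-elongating day 1 replicate 3 and day 3 replicate 3, elongating day 1 replicate 2 and day 3 replicates 1 and 2) (adjusted p = 0.0572 to 0.0892). The difference was -4.28 for ICL, -1.17 for HXK7 and -0.72 for NYC1 (adjusted p = 0.000834, 0.00327 and 0.00131). The defence genes WRKY71 and NPR1 had -1.46 and -1.02 (adjusted p = 0.00208 and 0.0132), and the call of NPR1 was lost without elongating day 1 replicate 1 (adjusted p = 0.0541). TIFY10a had -1.26 (adjusted p = 0.0073). Of the genes without a name, OS12G0163700 had 5.71 and OS08G0503000 had 3.8 (adjusted p = 0.00102 and 0.0286), and that of OS08G0503000 did not pass without any 1 of 5 libraries (non-elongating day 1 replicate 2, elongating day 1 replicates 1, 2 and 3 and day 3 replicate 2) (adjusted p = 0.0514 to 0.17).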

How the results depend on the processing

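Of the 754 values of 58 named genes past the test under 13 alternatives, 719 kept their call, 35 of 12 genes lost it and 0 changed direction. Of 402 values of 32 named genes not past the test, 19 of 9 genes gained a call, among them TRAB1, CAB1R and CHLH in the fit of the compared groups alone (adjusted p = 0.0309, 0.0451 and 0.047). Of 252 genotype differences (14 genes, 18 alternatives) 56 lost their call, and of 342 leaf type differences (19 genes) 12 did. The count for day 3 against day 1, 3489, was 2623 to 3865 under all alternatives, and 2624 to 2830 when 1 library was left out (1541 to 1669 higher, 1083 to 1189 lower). The genotype difference of 321 genes became 653 (249 higher, 404 lower) in the fit of the compared groups alone, 489 (219 higher) by DESeq2, and 292 rather than 192 genes were lower with no filter. It was 148 to 262 when 1 library was left out (68 to 111 higher, 80 to 157 lower). The leaf type difference of 1401 genes became 2177 (1153 higher) in the fit of the compared groups alone, and 1034 to 1187 when 1 library was left out (532 to 613 higher, 502 to 574 lower). The cause of these moves was not tested. Over the members with a checked name alone, the median of glycolysis changed sign (0.08, against -0.29). Of the 7 group VII ethylene response factors only 1 had a checked name, and its log2 change was 0.43, against the list median of -0.44. Counts of list members called were computed under the same alternatives, a choice made after seeing the data, and those moved by single libraries stand beside the lists.

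Deviations of libraries with the same replicate number correlated at 0.013, -0.073 and -0.151, and of those with different numbers at -0.109 to 0.158, so no pairing by number was seen. With 3 libraries a day, this check cannot exclude pairing. With the replicate block the counts were 3455, 304 and 1374 in the fit of all groups, where HSFA2c gained a call (adjusted p = 0.0367) and the genotype difference of EXPA4 lost its own (0.0521). The count was 2623 for day 3 against day 1 in the fit of these 2 groups, where JAR1 (adjusted p = 0.0591), SSIIb (0.0668), PIP2;6 (0.0611), CHLG (0.0869), COI1a (0.0849) and GDCH (0.0554) lost their call. At 5879544 to 7233223 counts per library, the changes of genes near 3 counts in a library, such as PDC2 and AOX1a, rest on few reads.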
